A study of Arabidopsis thaliana with 7 samples.

Results

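Transcripts of 10 genes that license DNA for replication, clamp the polymerase to it or supply its building blocks were measured in whole Arabidopsis thaliana seedlings that expressed 35S:MYB106VP16. The genes were chosen by locus, and the loci were matched to array probes through RefSeq transcript accessions: MCM2 (AT1G44900), MCM3 (AT5G46280), MCM4 (AT2G16440), MCM5 (AT2G07690), MCM6 (AT5G44635), MCM7 (AT4G02060, also called PROLIFERA), PCNA1 (AT1G07370), PCNA2 (AT2G29570), RNR1 (AT2G21790) and TSO2 (AT3G27060). They make up 10 of 25335 genes with a matched probe, and 14 of 34167 matched probes. All 10 were among the 20497 genes tested, and each of the 14 probes was well above background on all 7 arrays.

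The study compared 4 arrays of seedlings carrying 35S:MYB106VP16 with 3 arrays of wild-type seedlings. Both groups were of the Columbia-0 ecotype, 3 weeks old, and grown on sucrose-containing MS agar at 23 °C under 16 h of light and 8 h of darkness. MYB106 is a MYB transcription factor of the epidermis, and VP16 is a viral domain that turns a DNA-binding protein into a strong activator. The 35S promoter of cauliflower mosaic virus is active in most plant cells, so the protein need not be restricted to the cells that normally hold MYB106. Where it was made in these seedlings was not measured. The labels do not say how many transgenic lines were used or whether replicates were grown apart. Several plants of a plate went into an extraction, and the p-values therefore describe how these 7 samples scatter, part of which may be technical.

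Before a cell can copy its DNA, the origin recognition complex, CDC6 and CDT1 load a ring of 6 MCM proteins at each origin, and the loaded ring later becomes the helicase that opens the double strand. PCNA is the sliding clamp that keeps DNA polymerases on their template. Ribonucleotide reductase, made of a large subunit (RNR1) and a small one (TSO2 or RNR2A), turns ribonucleotides into the deoxyribonucleotides that the polymerases use. In plants these genes are known for high expression in meristems and young organs, for activation by E2F factors at the start of S phase, and for use in cells that copy their DNA without dividing.

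The array signal was expressed relative to the 75th percentile of all probes on the same array, which was 2213 to 2858 intensity units in 35S:MYB106VP16 and 2492 to 2677 in wild type. No spot was saturated. The 4 transgenic arrays lay on 1 slide and the 3 wild-type arrays on another, so slide and genotype cannot be told apart. MYB106 itself stood at 8.48, 9.80, 11.1 and 5.91 times the 75th percentile in 35S:MYB106VP16, against 0.173, 0.138 and 0.188 in wild type, and both of its probes were called higher, which fits the labels of all 7 arrays.

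The 10 genes did not move as a block. MCM2, MCM3, MCM4 and PCNA1 fell by 1.39-fold to 1.6-fold, TSO2 rose 1.36-fold on its main probe, and MCM5, MCM6, MCM7, PCNA2 and RNR1 did not pass the test. A gene was called where the adjusted p of limma (a linear model across all 20497 genes, Benjamini-Hochberg) was under 0.05. Among all genes 24.8% were called lower and 28.1% higher, so that the 5 called of 10 stood beside 52.9% in the whole table. The median log2 change of the 10 genes was -0.24, against 0.02 for all genes tested, and 8 of 10 changes lay below 0, against 48.1% of all genes. These signs depend on the scaling. MCM5, MCM7 and PCNA2 lay above 0 in the authors' series table, and RNR1 and TSO2 lay below 0 with spike-in scaling. The groups did not overlap for 5 of the 10 genes, all of them lower in 35S:MYB106VP16, where 57.6% of all genes separated the groups in either direction, 27.2% downward and 30.4% upward. None of the 10 main probes changed by 2-fold, whereas 4.72% of all genes were called lower and 5.77% higher by that much.

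**Figure D1:**
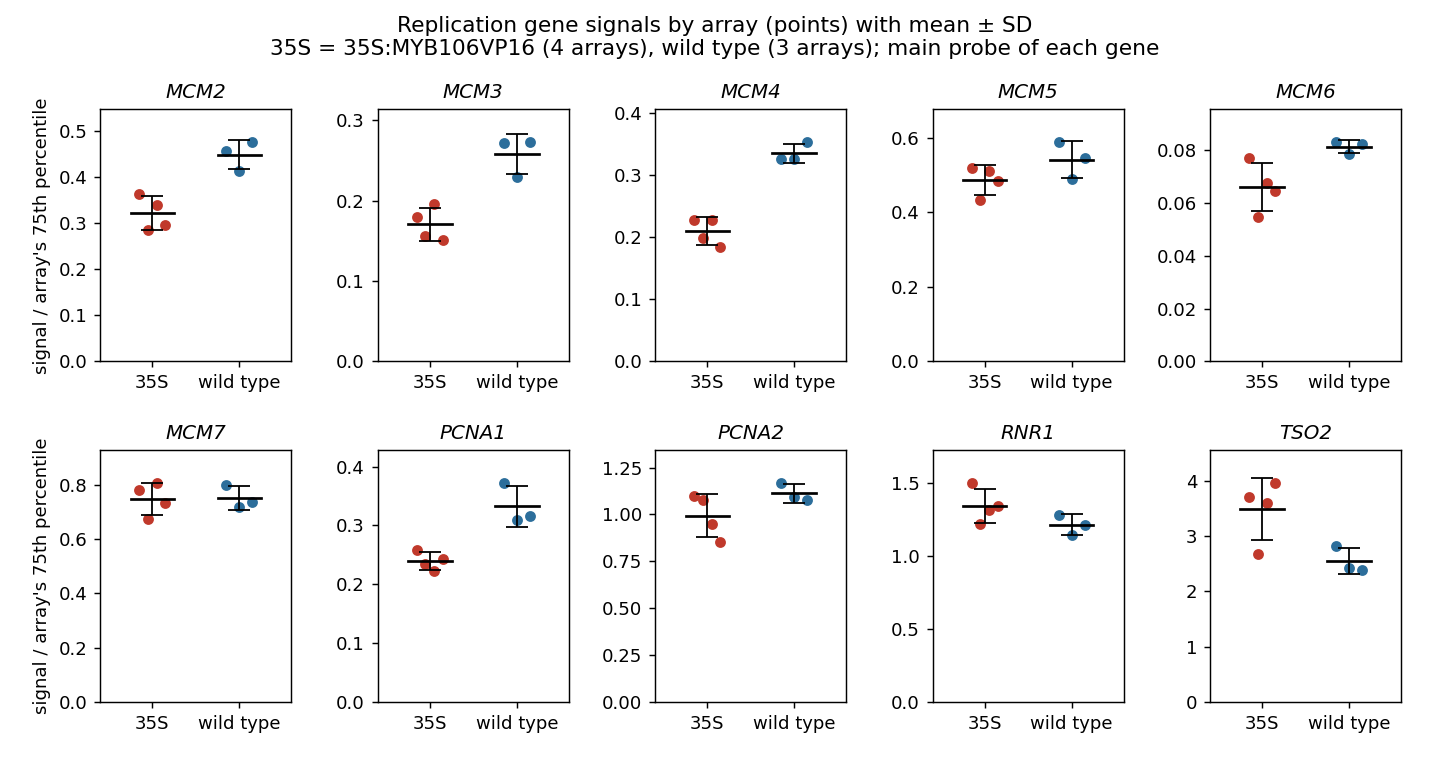
Signal of the main probe of each gene, as a multiple of the array's 75th percentile (vertical axis, linear from 0), for 4 arrays of 35S:MYB106VP16 on the left and 3 of wild type on the right of each panel. Points are arrays, bars the mean and error bars the SD; the groups separate for MCM2, MCM3, MCM4, MCM6 and PCNA1 and overlap for the other 5 genes.

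In the helicase ring, MCM4, MCM3 and MCM2 were called lower on their main probes. The main probe of MCM4, one of the subunits that forms the active helicase core with MCM6 and MCM7, gave 0.229, 0.200, 0.229 and 0.184 times the 75th percentile in 35S:MYB106VP16, against 0.327, 0.326 and 0.354 in wild type. Every transgenic array lay below every wild-type array. The log2 change was -0.68 ± 0.10 (SE; limma adjusted p = 0.00134), a 1.6-fold fall, and 10.9% of all genes tested had a lower change.

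MCM3 pairs with MCM5 in the ring and gave 0.180, 0.156, 0.195 and 0.151 in 35S:MYB106VP16, against 0.271, 0.229 and 0.273 in wild type. The groups did not overlap, and the log2 change was -0.60 ± 0.12 (SE; limma adjusted p = 0.00458), a fall of 1.51-fold. MCM2, the subunit that also binds histones in animals and yeast, gave 0.363, 0.285, 0.340 and 0.295 in 35S:MYB106VP16, against 0.455, 0.413 and 0.475 in wild type. Again the highest transgenic array stayed below the lowest wild-type array, with a log2 change of -0.49 ± 0.11 (SE; limma adjusted p = 0.00735), or 1.40-fold.

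MCM6 stood at the edge of the threshold. It gave 0.0768, 0.0547, 0.0674 and 0.0644 in 35S:MYB106VP16, against 0.0829, 0.0783 and 0.0823 in wild type, groups that do not overlap but leave a gap of only 0.03 on the log2 scale. The log2 change was -0.31 ± 0.12 (SE; limma adjusted p = 0.0536). Transgenic replicate 1 was the array nearest to wild type, so leaving it out had to enlarge the fall. MCM6 then passed (log2 -0.39; limma adjusted p = 0.0209). Without any other single array MCM6 did not pass (limma adjusted p = 0.0778 to 0.137). The fitted change was smaller with normexp background subtraction (log2 -0.098; limma adjusted p = 0.433), in the authors' series table (log2 -0.10; limma adjusted p = 0.487) and with median scaling (log2 -0.20; limma adjusted p = 0.203).

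MCM5 and MCM7 gave values that overlapped between the groups. MCM5 gave 0.520, 0.433, 0.511 and 0.483 in 35S:MYB106VP16, against 0.589, 0.490 and 0.546 in wild type (log2 -0.15, 95% interval -0.38 to 0.08; limma adjusted p = 0.221). MCM7, whose loss in Arabidopsis stops embryo and gametophyte development, gave 0.779, 0.674, 0.807 and 0.733 in 35S:MYB106VP16, against 0.800, 0.716 and 0.737 in wild type. Its log2 change was -0.01, with a 95% interval of -0.21 to 0.20 (limma adjusted p = 0.95). That interval excludes a fall as large as the one fitted for MCM2, MCM3 or MCM4, although differences between ring subunits were not tested. Of the 6 subunits, 3 were called lower, beside 24.8% of all genes, and 4 separated the groups downward, beside 27.2%. All 6 had a fitted change below 0, beside 48.1% of all genes. That of MCM7 was close to 0 and changed sign with median scaling (log2 0.11), normexp (0.094) and quantile normalization (0.0017). In the authors' series table both MCM7 (log2 0.20) and MCM5 (0.055) lay above 0.

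Among the 10 genes, 4 have a second probe, and the second probe did not always follow the first. The second MCM2 probe gave 0.0148, 0.0115, 0.0135 and 0.0120 in 35S:MYB106VP16, against 0.0262, 0.0301 and 0.0268 in wild type. These values are dim but well above background, and they fell by 2.15-fold (log2 -1.10 ± 0.11 SE; limma adjusted p = 0.000340 in the fit over 33215 probes, of which 27.1% were called lower and 26.8% higher). With normexp background subtraction the main MCM2 probe stood at log2 -0.44, and the changes of the 2 probes differed by only -0.037. The size of the 2.15-fold fall therefore depends on how background is handled. The second MCM4 probe gave 0.191, 0.163, 0.191 and 0.183 in 35S:MYB106VP16, against 0.177, 0.159 and 0.171 in wild type. It overlapped between groups, with a log2 change of 0.11 and a 95% interval of -0.10 to 0.31 (limma adjusted p = 0.332). Of the 2 MCM4 probes, 1 was thus called lower, and their mean gave a log2 change of -0.29 (limma adjusted p = 0.0241). The mean of both MCM2 probes gave -0.79 (limma adjusted p = 0.000761), so the order of MCM2, MCM3 and MCM4 by size depends on the probes used.

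The second MCM7 probe gave a log2 change of -0.17 (95% interval -0.40 to 0.06; limma adjusted p = 0.185). For TSO2 the second probe gave 0.936, 0.645, 0.805 and 0.919 in 35S:MYB106VP16, against 0.861, 0.690 and 0.711 in wild type (log2 0.12, 95% interval -0.23 to 0.48; limma adjusted p = 0.516). The gap between the changes of the main and the second probe of a gene was compared within arrays, a test chosen after the values were seen. It was 0.62 for MCM2, -0.79 for MCM4 and 0.32 for TSO2 on the log2 scale, each with p = 0.0286, the smallest that the 35 splits of 7 arrays allow (exact permutation test, two-sided; adjusted p = 0.0381 over 4 genes). For MCM7 it was 0.16 (exact permutation test, adjusted p = 0.114). With normexp background subtraction the MCM2 gap was -0.037 (exact permutation test, adjusted p = 0.83), that of MCM7 at 0.18 passed (exact permutation test, adjusted p = 0.0381), and those of MCM4 and TSO2 kept their direction and adjusted p. Where the probes lie in the transcripts was not analysed here.

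**Figure D2:**
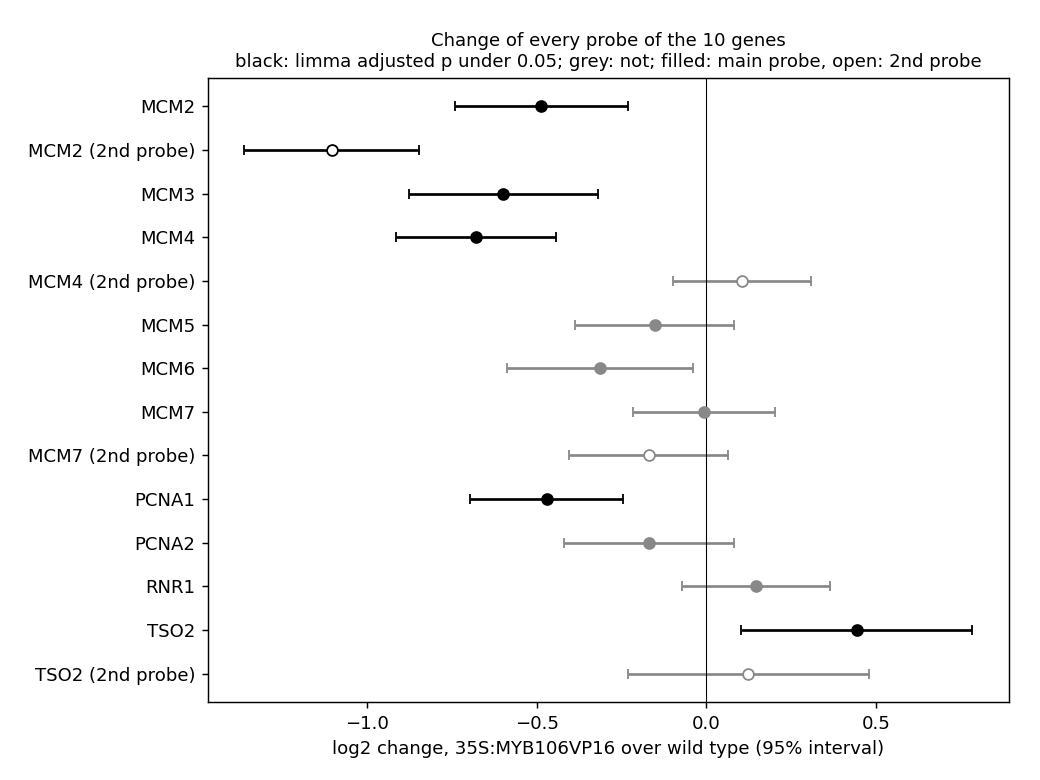
Log2 change of all 14 probes, 35S:MYB106VP16 over wild type (horizontal axis), with 95% intervals from limma over 33215 probes. Filled points are main probes, open points second probes, black ones passed at adjusted p under 0.05; the probes of MCM4 lie on opposite sides of 0, at -0.68 and 0.11.

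The sliding clamp showed a lower signal for PCNA1. It gave 0.258, 0.234, 0.223 and 0.244 times the 75th percentile in 35S:MYB106VP16, against 0.373, 0.308 and 0.317 in wild type, with no overlap. The log2 change was -0.47 ± 0.09 (SE; limma adjusted p = 0.00483), a 1.39-fold fall. PCNA2, which encodes a closely similar clamp, gave 1.10, 1.08, 0.948 and 0.851 in 35S:MYB106VP16, against 1.17, 1.09 and 1.08 in wild type, and replicates 1 and 2 of the transgenic group lay within the wild-type range (log2 -0.17, 95% interval -0.41 to 0.08; limma adjusted p = 0.210).

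Whether the clamps differ from each other was tested within arrays, which does not depend on how arrays are scaled. PCNA1 minus PCNA2 was -2.05 ± 0.17 in 35S:MYB106VP16 (SD, n = 4) and -1.75 ± 0.09 in wild type (SD, n = 3), a difference of -0.30 (exact permutation test, two-sided, p = 0.0857, and 0.0857 adjusted over 3 gene pairs). The fall of PCNA1 was thus not shown to differ from the change of PCNA2. With 1 probe each and similar transcripts, shared signal between these genes cannot be assessed without probe sequences, which were not used here.

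Among the subunits of ribonucleotide reductase, TSO2 and RNR1 had fitted changes above 0 and RNR2A, which is not among the 10, below 0. TSO2 encodes the small subunit whose mutants have fasciated, irregular shoots and damaged DNA. Its main probe gave 3.71, 2.68, 3.59 and 3.96 in 35S:MYB106VP16, against 2.81, 2.43 and 2.39 in wild type. Transgenic replicate 2 lay below wild type replicate 1, and the other 3 transgenic arrays lay above every wild-type array. The log2 change was 0.44 ± 0.14 (SE; limma adjusted p = 0.0344), a 1.36-fold rise. The call was lost when transgenic replicate 1, 3 or 4 or wild type replicate 2 or 3 was removed (limma adjusted p = 0.0707 to 0.110), nor with the mean of both probes (log2 0.28; limma adjusted p = 0.140).

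RNR1, the large subunit, whose weak mutants have crinkled pale leaves, gave 1.5, 1.22, 1.31 and 1.34 in 35S:MYB106VP16, against 1.28, 1.14 and 1.21 in wild type (log2 0.15, 95% interval -0.07 to 0.36; limma adjusted p = 0.210). RNR2A, the other small subunit, gave 1.30, 1.33, 1.02 and 1.18 in 35S:MYB106VP16, against 1.46, 1.41 and 1.45 in wild type (log2 -0.26 ± 0.10 SE; limma adjusted p = 0.0696). Its groups did not overlap, and 2 of its 3 probes were called lower in the fit over probes. TSO2 minus RNR1 was 1.37 ± 0.18 in 35S:MYB106VP16 (SD, n = 4) and 1.07 ± 0.08 in wild type (SD, n = 3). TSO2 minus RNR2A was 1.52 ± 0.37 in 35S:MYB106VP16 (SD, n = 4) and 0.82 ± 0.11 in wild type (SD, n = 3). The differences of 0.30 and 0.70 had p = 0.0571 each (exact permutation test, two-sided; adjusted p = 0.0857 over the 3 pairs). Every transgenic array exceeded every wild-type array in both of these gaps.

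Which genes counted as higher or lower depended on the scaling. The 7 bright spike-in transcripts, RNAs not from the plant, were higher in 35S:MYB106VP16 by 0.20 to 0.88 (log2), and scaling to these RNAs moved the median change of all genes to -0.54, against 0.02 with the 75th percentile, 0.14 with the array median and 0.23 in the authors' series table. Genes called higher and lower numbered 5764 and 5082 with the 75th percentile, 7555 and 3786 with the median, 7302 and 2276 in the authors' series table, and 1245 and 13201 with spike-ins. In the same order, 4, 4, 2 and 9 of the 10 genes were called lower and 1, 2, 2 and 0 higher. MCM3 and MCM4 were lower under all 4 on their main probes.

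Relative to the median of all genes, which these scalings leave nearly unchanged, MCM4 stood at -0.70, MCM3 at -0.62, MCM2 at -0.51 and PCNA1 at -0.49 on the log2 scale, MCM7 at -0.03, RNR1 at 0.12 and TSO2 at 0.42. MCM2 and PCNA1 did not pass in the authors' series table (log2 -0.28 and -0.26; limma adjusted p = 0.0870 and 0.149), where RNR1 passed upward (log2 0.35; limma adjusted p = 0.0390). TSO2 stood at log2 -0.12 with spike-in scaling (limma adjusted p = 0.449). These 4 scalings shift all genes of an array alike, so the order of the 10 changes, from MCM4 at the low end to TSO2 at the high end, stays as it is by construction.

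**Figure D3:**
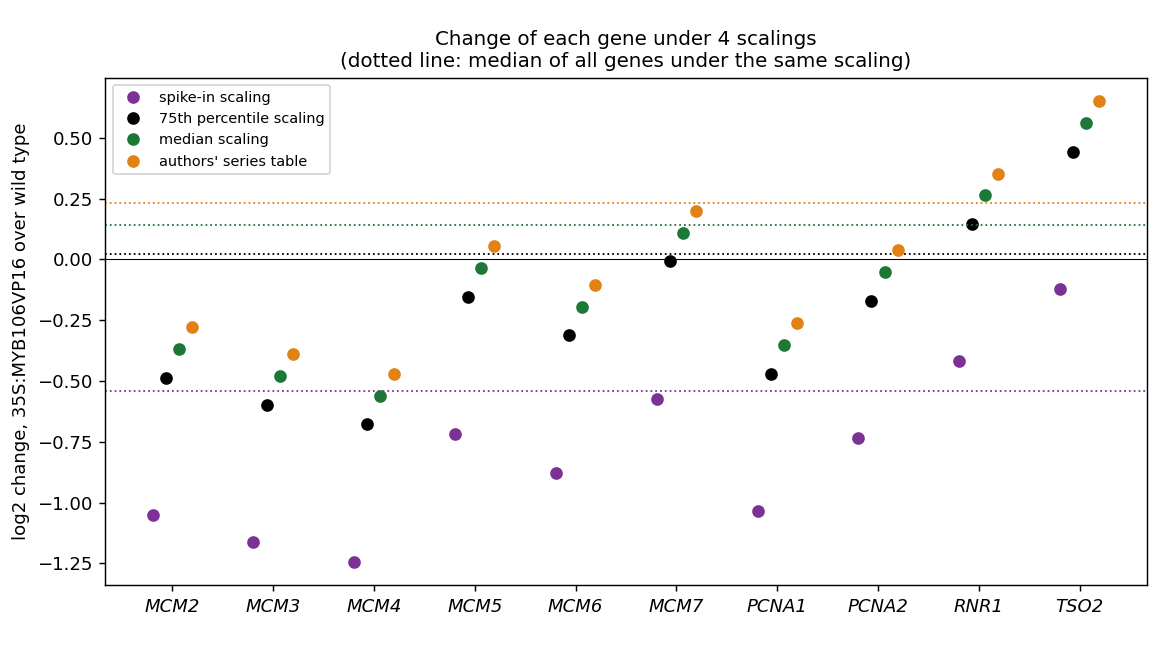
Log2 change of the main probe of each gene, 35S:MYB106VP16 over wild type (vertical axis), under scaling to spike-ins, the 75th percentile, the median, and in the authors' series table. Dotted lines are the median of all genes in the same colour, from -0.54 to 0.23; MCM2, MCM3, MCM4 and PCNA1 lie below that median under each scaling and TSO2 above it.

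Within a genotype, most of the 10 genes lay on the same side of the group mean on some arrays and were divided on others. In 35S:MYB106VP16, replicate 1 lay above the group mean for 10 of 10 genes, replicate 2 below it for 9, with PCNA2 as the exception, replicate 3 above it for 7 and replicate 4 above it for 2. In wild type, replicate 2 lay below the group mean for all 10, replicate 1 above it for 9 and replicate 3 above it for 6. Of all genes tested, 47.2% and 47.1% were above the group mean on transgenic replicates 1 and 2, and 50.3% and 55.0% on wild type replicates 2 and 1. The deviations were small, with the lowest at -0.36 on the log2 scale (TSO2 on transgenic replicate 2) and the next at -0.26 (MCM6 on the same array). These arrays share their scaling and hybridization, so the deviations are a description.

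Genes for loading the ring and turning it into a helicase were also partly called. Of 20 tested genes for origin recognition, loading and helicase activation, 7 were called lower and 1 higher, beside 24.8% and 28.1% of all genes. The median log2 change of these 20 was -0.18. MCM10, a factor for helicase activation in yeast and animals, gave 0.0222, 0.0177, 0.0251 and 0.0208 in 35S:MYB106VP16, against 0.0437, 0.0324 and 0.0361 in wild type, a 1.74-fold fall (log2 -0.80 ± 0.15 SE; limma adjusted p = 0.00341). CDT1B, a loading factor, and ORC1B, the largest origin recognition subunit, fell 1.51-fold and 1.5-fold (limma adjusted p = 0.00276 and 0.00387). CDT1B did not pass in the authors' series table (limma adjusted p = 0.0577). The count of 7 became 4 without transgenic replicate 1 and 3 without wild type replicate 2 or 3, and the number called higher ranged over 0 to 2. With other scalings the balance changed, to 3 lower and 4 higher with the median, 2 and 3 in the authors' series table, and 19 and 0 with spike-ins.

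At the fork, 7 of 26 tested polymerase, clamp loader, ligase and single-strand binding genes were lower and 6 higher, with a median of -0.15. For comparison, 24.8% of all genes were called lower and 28.1% higher. Whether the fork genes differ from all genes was not tested. DPB2, a subunit of polymerase epsilon, and POLA2, of polymerase alpha, fell 1.62-fold and 1.49-fold (limma adjusted p = 0.00107 and 0.00182). AT4G18590, annotated as Replication Protein A 3B, rose 1.53-fold (limma adjusted p = 0.00207) but was at log2 0.05 under spike-in scaling (limma adjusted p = 0.735). Without wild type replicate 3 the counts were 4 lower and 2 higher, without wild type replicate 2 they were 4 and 3, and without wild type replicate 1 they were 6 and 3. They were 4 lower and 7 higher with median scaling, 2 and 6 in the authors' series table, and 21 and 0 with spike-ins.

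Among 11 other genes of nucleotide supply, 3 rose and 2 fell, where 28.1% of all genes were called higher and 24.8% lower. Their median log2 change was 0.07. CDA1, a cytidine deaminase, gave 0.804, 0.917, 1.04 and 1.18 in 35S:MYB106VP16, against 0.629, 0.505 and 0.488 in wild type, a 1.82-fold rise (limma adjusted p = 0.00295). ZEU1, a thymidylate kinase, rose 1.56-fold (limma adjusted p = 0.00219) and TK1a, a thymidine kinase, 1.49-fold (limma adjusted p = 0.0121, but 0.0506 without wild type replicate 3). Scaling to spike-ins ended all 3 calls (limma adjusted p = 0.104 to 0.945). The 2 that fell, THY-1 (log2 -0.45), which makes thymidylate, and dNK (log2 -0.41), a deoxyribonucleoside kinase, are named after their values were seen. The count of 2 became 1 without transgenic replicate 3 or 4 or any wild-type array. Lower and higher genes numbered 1 and 4 with median scaling, 0 and 5 in the authors' series table, and 6 and 0 with spike-ins.

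The E2F group is known to set the level of many replication genes. Of its 9 members 4 fell and none rose, where 24.8% of all genes were called lower and 28.1% higher. The median log2 change was -0.13. The atypical E2F factors DEL2, DEL1 and DEL3 fell 1.82-fold, 1.70-fold and 1.56-fold (limma adjusted p = 0.000510, 0.00114 and 0.000698), and for each of them the groups did not overlap. DEL1 gave 0.0647, 0.0542, 0.0723 and 0.0604 in 35S:MYB106VP16, against 0.101, 0.112 and 0.107 in wild type. E2F3 (E2FA, log2 -0.55), an activator of S phase named after its value was seen, was the fourth. The values of RBR1, E2F1 (E2FB), ATE2F2 (E2FC), DPA and DPB lay between log2 -0.13 and 0.12 and did not pass. With spike-in scaling all 9 were called lower, and with median scaling or quantile normalization 1 was called higher.

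Of 16 chromatin assembly and replication-coupled histone genes, 3 fell, 2 rose and 11 were not called (median -0.09). Both shares lie below those of all genes, of which 24.8% were called lower and 28.1% higher. Copies of the histone genes went different ways: the H3.1 gene AT5G10390 fell 1.76-fold (limma adjusted p = 0.00184) and another, AT5G10400, 1.42-fold (limma adjusted p = 0.000992), while AT3G46320, a gene of the histone H4 list, rose 1.90-fold (limma adjusted p = 0.00715). Scaling to spike-ins ended the call of AT3G46320 (limma adjusted p = 0.0949), and the authors' series table that of AT5G10400 (limma adjusted p = 0.107). Histone copies have near-identical coding sequences, and signal shared between them was not tested. The fallen genes numbered 6 without transgenic replicate 4, and 2 without transgenic replicate 1 or any wild-type array. With median scaling 2 were lower and 5 higher, the authors' series table gave 1 and 2, and spike-ins gave 13 and 0.

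Genes of mitosis, by contrast with the mixture above, were all called lower: 12 of 12, where 24.8% of all genes were. This list, like the others, was chosen with earlier results of these data known, so the count is a description. Their median log2 change was -0.74, and 5 of them fell by 2-fold or more, beside 4.72% of all genes. CDKB2;2, a mitotic kinase, gave 0.0990, 0.113, 0.0769 and 0.0772 in 35S:MYB106VP16, against 0.194, 0.220 and 0.241 in wild type, a 2.41-fold fall (limma adjusted p = 0.000748). CYC1BAT, which is the cyclin CYCB1;2, fell 2.20-fold and the Aurora kinase AUR1 2.12-fold (limma adjusted p = 0.000276 and 0.000123). The smallest mitotic fall was -0.53 and the largest fall among the 10 replication genes -0.68, so their ranges overlap, and the difference between the lists was not tested. All 12 mitotic genes were also lower without any array in turn and with spike-in scaling, and 9 were in the authors' series table.

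Of 9 tested genes known from the response to DNA damage, 4 rose and 1 fell, beside 28.1% and 24.8% of all genes. The median log2 change was -0.002. With spike-in scaling 2 were called higher and 5 lower. AT3G27630 (SMR7), an inhibitor of cyclin-dependent kinases, gave 0.261, 0.173, 0.254 and 0.279 in 35S:MYB106VP16, against 0.0683, 0.0602 and 0.0509 in wild type, a 4.0-fold rise (limma adjusted p = 0.000279). GMI1, named for its response to gamma irradiation and mitomycin C, rose 2.72-fold (limma adjusted p = 0.000337). PARP2, a poly(ADP-ribose) polymerase, rose 1.83-fold (limma adjusted p = 0.00246), a call that scaling to spike-ins ended (limma adjusted p = 0.0992). BRCA1 (log2 0.35) rose as well and WEE1 (log2 -0.69), a kinase that delays the cell cycle, fell, both named after their values were seen. SOG1, the central regulator of this response in plants, did not pass (log2 -0.003).

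**Figure D4:**
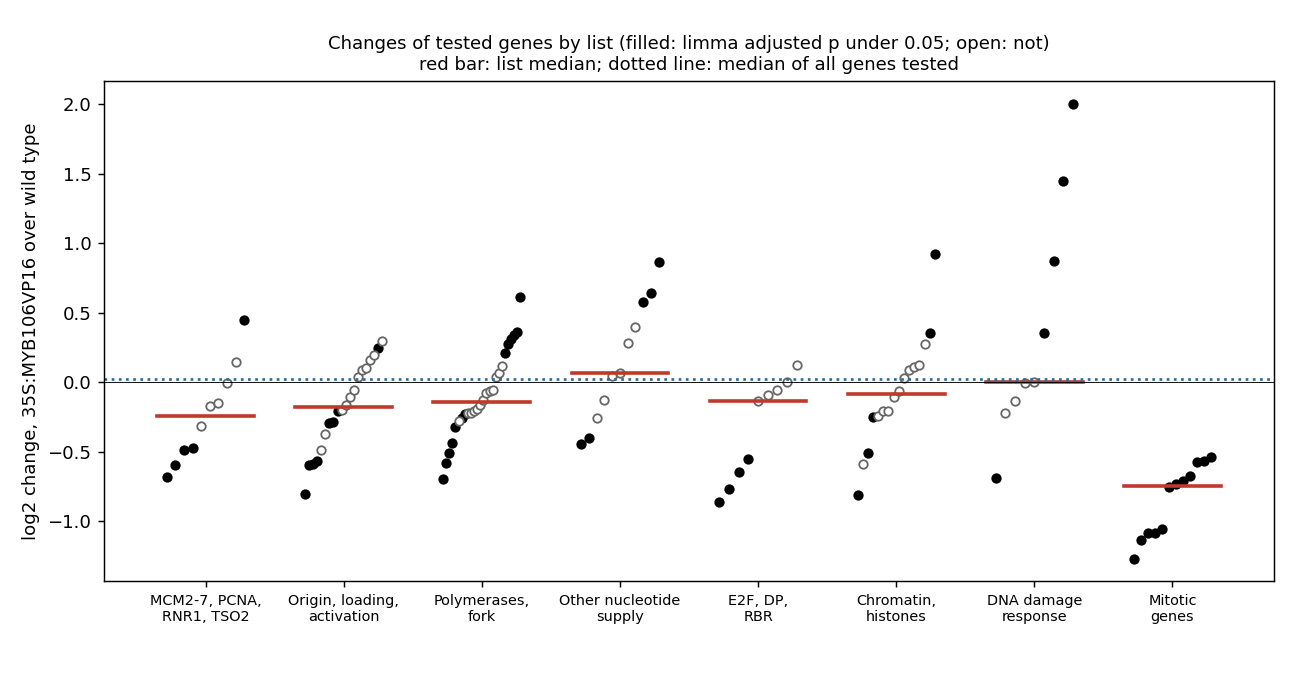
Log2 change of each tested gene, 35S:MYB106VP16 over wild type (vertical axis), by gene list (columns). Filled points passed limma at adjusted p under 0.05, open points did not, red bars are list medians from -0.74 (mitotic genes) to 0.07 (other nucleotide supply), and the dotted line is the median of all genes tested, 0.02.

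Tissue markers were examined beside these results. Of 10 meristem markers 8 were tested and 2 fell, where 24.8% of all genes were called lower: ANT (log2 -1.10), a transcription factor of young organs, and SHR (log2 -0.48), of root patterning, and none rose. The summed meristem signal was 3.20 to 3.67 in 35S:MYB106VP16, against 4.29 to 4.49 in wild type. Without ANT and SHR, a choice made after seeing the data, the sum over the other 6 tested markers was 1.85 to 2.19 in 35S:MYB106VP16, against 2.14 to 2.22 in wild type, and the groups overlapped. WUS and CLV3, which mark the centre of the shoot meristem, were well above background on 1 of 7 arrays (WUS) and 0 of 7 (CLV3), while STM and KNAT1, also of the shoot meristem, were well above background on all 7 and did not pass on their main probes (log2 0.13 and 0.16). In the fit over probes, 1 of 2 STM probes was called lower and 1 of 2 SCR probes higher. The root meristem markers PLT1, PLT2 and WOX5 did not pass. The part of these tissues in the results was not tested. In whole seedlings, fewer dividing cells and less transcript per cell cannot be told apart.

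Green tissue and root were present on all arrays, as the label of whole seedlings states. All 8 green tissue markers, RBCS1A and CAB3 among them, were well above background on every array. Their summed signal was 437 to 538 in 35S:MYB106VP16, against 516 to 563 in wild type. On main probes 1 of 8 was called lower, again beside 24.8% of all genes, and with probe means 4 were. In the fit over probes, 7 of 9 of RCA, 8 of 8 of CA1 and 3 of 5 of PSAD-1 were called lower. RBCS1A had 2 of 13 and LHCA1 0 of 5, where 27.1% of all probes were lower, and no green tissue probe was higher. Of 8 root markers 2 were called higher and 1 lower, where 28.1% of all genes were higher and 24.8% lower, with a summed signal of 3.76 to 5.61 in 35S:MYB106VP16, against 3.31 to 4.37 in wild type. The call of the lower one, IRT1, was lost on removing transgenic replicate 1, 3 or 4 or wild type replicate 2 or 3, and no root marker was called lower with normexp, quantile or median normalization, in the authors' series table, with no filter on dim probes or with probe means.

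The genes with a symbol, outside the lists, whose signal followed the mean of MCM2 to MCM7 most closely over the 7 arrays were AGL8 (Pearson r = 0.987), CBL2 (0.984), GSTL3 (0.983), GDCH (0.981) and HCF106 (0.980). Of all genes tested, 201 (0.984%) had r above 0.95. The 7 points share the split into 2 genotypes, and the correlation is given as a description.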

How the data were processed

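Per the labels, total RNA (1 µg) was labelled with Cy3. The deposited intensity of each spot came from Agilent Feature Extraction 9.1.3.1, per the file headers and the submitters' processing notes, and is background-subtracted; other deposited columns are 0 or 1 flags per spot. The authors' series table holds the same intensity divided by a constant, 1042 in 35S:MYB106VP16 and 1238 in wild type (medians 0.331 to 0.438, linear, not centred), and served as an alternative.

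Spots flagged as outliers were left out, spots of a probe averaged as log2, and each array's 75th percentile over 43603 probes subtracted. Without versions, 34167 of 36022 RefSeq probes matched 1 gene (assembly TAIR10.1). A gene's main probe was the brightest over all arrays, and 20497 genes with it well above background on 3 or more arrays were fitted (limma 3.58.1, R 4.3.3; genotype only). Single gene pairs were tested by exact permutation. The number of arrays limits precision. Members and gene lists were chosen with earlier results of these data known. Named genes are all members, MYB106, the 3 called genes of each list with the largest change, and the 5 closest profiles; others are marked. No sequences were used here.

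Replicate numbers equal positions on the slide. Deviations of same-numbered arrays correlated at 0.18, -0.03 and -0.08, and those of differently numbered arrays at -0.31 to 0.17. So few arrays cannot show whether the numbers pair the samples. Alternatives were normexp (offset 50), quantile, median and spike-in scaling, the authors' series table, no and stricter detection filters, probe means, probes as features, the replicate block, and leaving out each array.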

Additional observations from a re-analysis of the deposited data

Results flagged for a closer look

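PARP2, the poly(ADP-ribose) polymerase gene of the DNA damage list, was at -2.36 on 35S:MYB106VP16 replicate 2, well below the -1.98 to -1.91 of the other 3 transgenic arrays (log2 signal relative to the 75th percentile). It was the only such case among 37 named genes examined in the 4 transgenic arrays, where chance marks about 1 in 20.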

How the results depend on the processing

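MCM3 and MCM4 were lower and called under every alternative run, MCM4 on its main probe or the mean of its probes. The second MCM4 probe was not called (log2 0.11; limma adjusted p = 0.332 in the fit over probes). The 12 mitotic genes lost calls only in the authors' series table. Scaling to spike-ins, the median or the authors' constants shifts all genes of an array alike, which moves small changes across the threshold. For the other changes the cause was not tested. With spike-ins, 13201 genes were lower and 1245 higher, of the 10 genes 9 and 0, and of the 103 related genes 85 and 2. The log2 changes were then -0.72 for MCM5, -0.88 for MCM6, -0.57 for MCM7, -0.73 for PCNA2, -0.42 for RNR1 and -0.12 for TSO2. The authors' series table gave 2276 genes lower, 2 of the 10 lower and 2 higher, and 19 related genes lower, with MCM2 at -0.28, MCM5 at 0.055, MCM7 at 0.20, PCNA1 at -0.26, PCNA2 at 0.039 and RNR1 at 0.35. Median scaling gave 2 of the 10 and 25 related genes higher, MCM7 at 0.11 and RNR1 at 0.26. Normexp gave MCM7 at 0.094, PCNA2 at -0.27 (limma adjusted p = 0.0489) and the MCM2 probe gap at -0.037, and quantile normalization gave MCM7 at 0.0017. TSO2, and with it the only gene called higher, was lost (0 of 10) with no filter on dim probes (0.44), the probe mean (0.28) and the replicate block (0.38), where MCM7 was at 0.0015. Transgenic replicate 4 has no wild-type partner in that block, so the block gives the same changes as leaving that array out. The replicate numbers equal positions on the slide, and whether they also pair the samples is not known. MCM6 at -0.31 passed when a gene had to be detected on all arrays (limma adjusted p = 0.0482). Over single probes 8917 were higher and 8997 lower. Leaving out each array in turn gave 0 to 1 of the 10 and 10 to 16 related genes higher, MCM6 between -0.39 and -0.23, MCM7 between -0.045 and 0.042, and TSO2 between 0.38 and 0.57. With fewer arrays the exact tests of gene and probe pairs cannot pass. Slide as a block and the promoter motif description were not run.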
